A study of Mus musculus with 6 samples.

Results

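Interferon-stimulated genes were followed in 32D cells, a mouse haematopoietic cell line that needs interleukin-3 to grow. Per the labels, the line comes from the bone marrow of C3H/HeJ mice infected with Friend leukaemia virus. Of the 6 samples, 3 were mock-transduced and labelled MSCVpuro, after a retroviral vector, and 3 were transduced with Nup98::Nsd1, a fusion of a nuclear pore protein with a histone methyltransferase that occurs in acute myeloid leukaemia. The labels name no other agent, and they do not say whether the transduced cells were pools or clones or whether the samples were separate cultures, and each p-value therefore covers the spread among these 6 samples alone, which may be technical. The members are 35 genes named by symbol, with the interferon regulatory factors left out, and their probe sets are those annotated to 1 of these symbols alone. This gave 55 probe sets for 33 of the 35 genes, out of 18193 gene symbols measured on the array. The probe set of Isg15 is annotated to Isg15 and Gm9706 together and was left out, and no probe set was annotated to Ifi44.

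Interferons are secreted proteins that cells release on sensing foreign or misplaced nucleic acid. Type I interferons bind a receptor of the chains Ifnar1 and Ifnar2, whose kinases Jak1 and Tyk2 activate Stat2. A complex that holds Stat2 and Irf9 then binds the interferon-stimulated response element in the promoters of the genes described here, whose products sense RNA, degrade it, block translation or modify proteins. Many of these genes are also expressed at a low level without interferon, and in blood cells that level differs between cell types.

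Interferon-stimulated genes were higher in Nup98::Nsd1 cells at most members that could be tested. Of the 23 tested genes, 22 rose and 0 fell by limma (adjusted p under 0.05), and at an unadjusted p under 0.05 the number that fell was also 0. Over all 9641 tested genes, 42.9% were called higher and 29.5% lower, so rises were common among genes in general. At 2-fold or more, 14 members rose, against 9.53% of all tested genes. A rise of at least 4-fold was seen in 9 members. The share of all tested genes at 4-fold was not counted, so that count is no result about the members. Of these 9, Dhx58, Oas1a and Ifit1 were called Absent on all mock arrays, so that their folds are lower bounds. The median log2 fold change was 1.42 over the tested members and 0.115 over all tested genes. Among the 17 tested members Present on all 6 arrays, the largest rises were those of Samd9l, a restrictor of viral translation (6.34-fold), and of the GTPase genes Gbp3 (5.27-fold) and Gbp2 (4.94-fold). Ifit2, an RNA-binding protein gene, was the tested member that was not called.

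A gene entered the test if it was called Present by MAS5 detection on each array of either group. Of the 23 tested members, 17 were Present on all 6 arrays, and the other 6 (Dhx58, Oas1a, Xaf1, Oas2, Ifit1 and Rsad2) passed through the Nup98::Nsd1 arrays, where they were high, so their rise is tied to the filter. A filter that looks at the mock arrays alone was therefore added after the data were seen. It tested 18 members, of which 16 rose, 0 fell and 2 (Ifit2 and Xaf1, the latter at another probe set) were not called. In that fit 41.7% of 9167 genes were called higher, and the share called lower was not counted. The median log2 fold change of the 18 members was 0.929, against 0.0869 over all genes in that fit. Of the 18, 8 rose at least 2-fold, against 7.8% of genes.

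**Figure D1:**
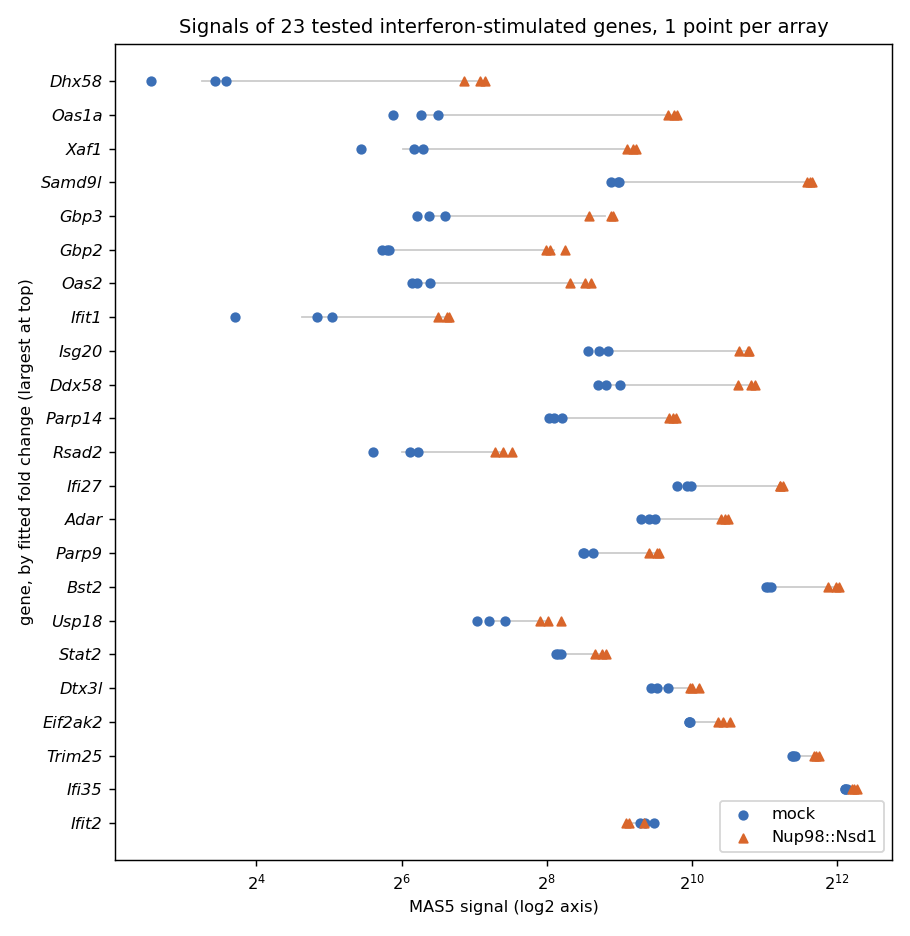
MAS5 signal (horizontal log2 axis) of the brightest tested probe set of each of the 23 tested members, with 1 point per array, mock arrays as blue circles and Nup98::Nsd1 arrays as orange triangles; the grey line joins the group means. For 22 genes the groups do not overlap and the Nup98::Nsd1 arrays are the higher, and for Ifit2 they overlap. The share of all tested genes without overlap was not counted, so this count is no result about the members.

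By probe set, 33 of 40 tested member probe sets were called higher and 3 lower, beside 42.3% and 27.6% of all 20494 tested probe sets. The detection calls moved the same way: 6 of the 55 member probe sets were Present on no mock array and on all 3 Nup98::Nsd1 arrays, and 0 showed the reverse. Among all 34945 probe sets with 1 gene symbol these shares were 1.09% and 0.418%. The 6 were 1 each of Ddx58, Dhx58, Ifit1 and Oas1a and 2 of Rsad2. Ddx58, Dhx58 and Rsad2 had a further probe set that was Present on at least 1 mock array.

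Scaling of the arrays moved the small changes. The deposited signals put the median tested probe set at a log2 fold change of 0.15, and scaling to the hybridization controls put it at -0.21. Of all calls over probe sets 60.5% were higher as deposited, and the share dropped to 49.7% when arrays were quantile normalized. Centring each array on its 75th percentile gave 44.8%, on its median 47.1%, and scaling to the hybridization controls 32.3%. Under the last, 17 member genes were called higher and 2 lower, beside 21.1% and 50.4% of all tested genes. The 2 were Ifi35 and Ifit2, and Stat2, Dtx3l, Eif2ak2 and Trim25 were no longer called. The Actb control, whose signal near the transcript's end over that near its start rises as RNA or labelling quality drops, gave ratios of 1.15 to 1.2 on mock and 1.45 to 1.5 on Nup98::Nsd1 arrays. Its part in the results was not tested.

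**Figure D2:**
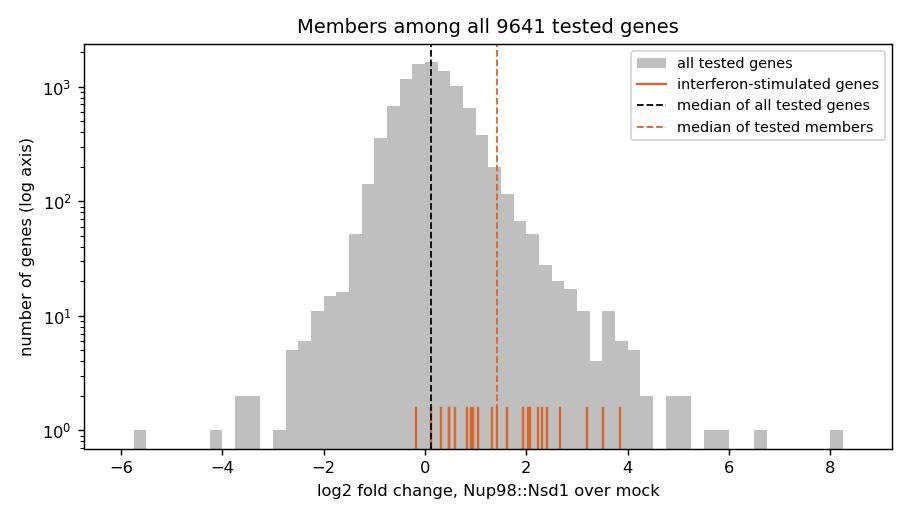
Number of genes (vertical log axis) by log2 fold change, Nup98::Nsd1 over mock, for all 9641 tested genes in grey, with 1 orange tick for each of the 23 tested members and dashed lines at the medians. The median lies at 0.115 for all genes and at 1.42 for the members.

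The promoters of the members were set beside these changes because interferon signalling is known to act through a short motif in them. RefSeq windows on GRCm38.p6, from 250 bases before to 50 bases after an annotated start, were found for 24 of the 35 members. The core of the interferon-stimulated response element, GAAANNGAAA on either strand, occurred in the windows of 13 of these 24 genes, or 54.2%, against 3.99% of the 27025 genes with a window. By window, it was held by 13 of 30 member windows and 3.44% of all 32851. The core of the gamma-activated sequence, TTCNNNGAA, which reads the same on both strands, occurred in 7 of the 24 genes (29.2%, against 9.55% of all genes). Of 16 members called higher that had a window, 9 held the first motif, and 7 did not: Adar, Dtx3l, Ifi35, Isg20, Samd9l, Trim25 and Xaf1. The core also occurred at Ifih1, Ifit3, Isg15 and Oas3, which were not tested. Of these, Ifih1 was Absent on every array with overlapping groups. The members were chosen as interferon-stimulated genes, so their motif shares go with that choice and are no result of these samples. A match is a description of the letters in this window and not evidence of binding.

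Windows of the 6 members with the highest fitted fold changes among those that hold the response element core are given, with the window of Ifit2, which was not called, for contrast. Each reads 5′ to 3′ on the strand of its gene, capitals mark every base of a match to the core, and overlapping matches run together. Their positions on GRCm38.p6 are chr5:120907476-120907775 (minus strand) for Oas1a, chr3:142559794-142560093 (plus) for Gbp3, chr3:142620413-142620712 (plus) for Gbp2, chr19:34640639-34640938 (plus) for Ifit1, chr4:40239776-40240075 (minus) for Ddx58, chr12:26456403-26456702 (minus) for Rsad2 and chr19:34550444-34550743 (plus) for Ifit2.
Oas1a: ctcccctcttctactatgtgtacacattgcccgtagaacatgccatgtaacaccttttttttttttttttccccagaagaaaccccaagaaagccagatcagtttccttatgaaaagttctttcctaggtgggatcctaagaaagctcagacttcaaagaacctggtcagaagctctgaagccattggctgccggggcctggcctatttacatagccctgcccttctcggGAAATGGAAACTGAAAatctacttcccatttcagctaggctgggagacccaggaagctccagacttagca
Gbp3: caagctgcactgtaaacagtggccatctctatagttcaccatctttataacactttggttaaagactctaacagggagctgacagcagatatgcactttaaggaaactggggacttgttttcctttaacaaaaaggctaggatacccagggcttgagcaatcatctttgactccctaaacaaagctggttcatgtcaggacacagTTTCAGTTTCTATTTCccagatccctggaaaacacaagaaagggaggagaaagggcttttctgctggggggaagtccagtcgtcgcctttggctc
Gbp2: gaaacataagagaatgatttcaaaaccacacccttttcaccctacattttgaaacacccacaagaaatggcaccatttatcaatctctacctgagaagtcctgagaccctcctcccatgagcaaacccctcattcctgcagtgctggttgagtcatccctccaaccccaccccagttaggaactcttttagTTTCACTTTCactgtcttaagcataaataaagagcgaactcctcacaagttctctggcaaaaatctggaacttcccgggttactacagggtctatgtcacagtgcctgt
Ifit1: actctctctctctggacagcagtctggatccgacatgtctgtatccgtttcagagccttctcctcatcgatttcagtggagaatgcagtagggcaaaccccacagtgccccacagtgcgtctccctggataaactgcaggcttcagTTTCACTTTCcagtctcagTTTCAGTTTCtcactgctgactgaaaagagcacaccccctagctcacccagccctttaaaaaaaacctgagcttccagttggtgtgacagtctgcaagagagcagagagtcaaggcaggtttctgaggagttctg
Ddx58: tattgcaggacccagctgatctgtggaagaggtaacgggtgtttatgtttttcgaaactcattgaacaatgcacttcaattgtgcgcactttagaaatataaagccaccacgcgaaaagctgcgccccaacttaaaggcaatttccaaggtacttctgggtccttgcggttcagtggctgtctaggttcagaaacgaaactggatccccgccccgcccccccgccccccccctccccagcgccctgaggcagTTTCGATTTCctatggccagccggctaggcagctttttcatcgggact
Rsad2: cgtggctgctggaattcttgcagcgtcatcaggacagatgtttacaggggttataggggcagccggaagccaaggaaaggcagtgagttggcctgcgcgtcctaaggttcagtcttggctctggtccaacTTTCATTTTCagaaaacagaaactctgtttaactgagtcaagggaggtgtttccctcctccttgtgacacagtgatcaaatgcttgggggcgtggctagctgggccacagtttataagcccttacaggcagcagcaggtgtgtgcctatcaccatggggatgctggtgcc
Ifit2: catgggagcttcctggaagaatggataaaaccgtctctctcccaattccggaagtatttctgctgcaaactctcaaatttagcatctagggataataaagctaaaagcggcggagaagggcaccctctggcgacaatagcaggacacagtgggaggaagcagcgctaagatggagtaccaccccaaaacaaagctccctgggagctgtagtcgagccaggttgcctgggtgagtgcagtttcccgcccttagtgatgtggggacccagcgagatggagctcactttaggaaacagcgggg
In Oas1a a pair of overlapping matches begins 20 and 14 bases before the start, and in Gbp3 a pair begins 45 and 39 bases before it. Gbp2 has 1 match at 59 bases before the start and Rsad2 has 1 at 120 bases before it. Ifit1 has 2 separate matches, at 104 and 85 bases before the start, and the match of Ddx58 begins 2 bases after it. Neither of the 2 Ifit2 windows holds the core.

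Of the 4 member genes that sense foreign nucleic acid, Ddx58 and Dhx58 could be tested and both rose. Ddx58, now named Rigi, encodes the cytosolic receptor RIG-I for viral RNA. Its brightest probe set read 417, 514 and 452 on the mock arrays and 1789, 1869 and 1589 on the Nup98::Nsd1 arrays, a 3.80-fold rise (log2 fold change 1.93, SE 0.0875, adjusted p = 6.05e-09). All Nup98::Nsd1 arrays were more than 3 times as bright as any mock array. Another probe set rose by 2.16 on the log2 scale. The dimmest, called Absent on each mock array at 7.91, 6.52 and 23.1, was Present at 156, 159 and 154, at least 12.7-fold higher in mean log2 signal. For such a bound each mock array counted with its own signal or, if larger, with the weakest Present signal it held, and means were taken over log2 signals, as for all folds here.

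Dhx58 encodes LGP2, a related helicase that tunes signalling by RIG-I and MDA5. Its tested probe set was called Absent on the mock arrays, at 10.8, 5.84 and 12.0, and Present on the Nup98::Nsd1 arrays at 136, 116 and 142 (at least 12.1-fold higher, adjusted p = 2.95e-06). A further Dhx58 probe set was brighter on average but Present on only 3 arrays, with overlapping groups at 51.2, 38.8 and 91.7 in mock and 71.6, 61.6 and 57.5 in Nup98::Nsd1 cells. It takes the place of the tested one, and Dhx58 is then not called, without a detection filter (log2 fold change 0.16) or without Nup98::Nsd1 replicate 2 (0.18). The third read under 11 on each mock array and 39.3, 39.1 and 76.6 on the Nup98::Nsd1 arrays.

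Ifih1, which encodes the RNA receptor MDA5, was called Absent on all 6 arrays at 2.39 to 46.2, with overlapping groups. Both probe sets of Zbp1, a sensor of left-handed nucleic acid, were likewise Absent throughout, with 37.2 as the highest signal. Neither gene was tested.

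The OAS family of oligoadenylate synthetases, which sense duplex RNA and make the messenger that activates RNase L, had 6 members on the array. At each, every Nup98::Nsd1 array was brighter than every mock array, though Oas3, Oasl1 and Oasl2 were Absent on all 6 arrays. The share of all probe sets ordered in this way was not counted, so the order is no result about the family. Only Oas1a and Oas2 were detected well enough to be tested, and both rose. Oas1a read 59.2, 90.6 and 77.3 on the mock arrays, all Absent, and 858, 817 and 883 on the Nup98::Nsd1 arrays, all Present. It was at least 11.4-fold higher (adjusted p = 4.47e-09). Oas2 read 84.2, 74.4 and 71.0 in mock cells, Present on 1 array, and 389, 320.4 and 369 in Nup98::Nsd1 cells, a 4.70-fold rise (adjusted p = 1.24e-07).

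Oas3, the long member of the family, was called Absent on all 6 arrays and was not tested. Its signals were nevertheless 22.9, 18.8 and 18.8 on the mock arrays and 195, 193 and 235 on the Nup98::Nsd1 arrays. The groups lay far apart, and no fold is given because neither was called above background. Oas1b, which C57BL/6 and many other laboratory strains carry in a truncated form, read 65.3, 34.2 and 47.9 in mock and 173, 127 and 122 in Nup98::Nsd1 cells, Present on 1 array of the latter.

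Oasl1, whose product blocks translation of Irf7 mRNA, read 76.0, 73.1 and 90.9 on the mock arrays and 198, 129 and 107 on the Nup98::Nsd1 arrays, all Absent. Oasl2 read 2.29, 2.45 and 18.5 in mock and 108, 57.8 and 77.4 in Nup98::Nsd1 cells, all Absent.

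Without the detection filter, 5 of the 15 untested member probe sets were called higher and 0 lower by limma, and 0 had an unadjusted p under 0.05 downward. In that fit 20.5% of all 45037 probe sets were called higher, a share that includes the tested probe sets. The shares called higher and lower among untested probe sets alone were not counted, so these counts are no result about the members. The 5 called higher were the probe sets of Oas1b (adjusted p = 0.00195), Oas3 (adjusted p = 4.3e-06), Oasl1 (adjusted p = 0.0304), Oasl2 (adjusted p = 0.00343) and the dimmest of Dhx58 (adjusted p = 0.00707).

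**Figure D3:**
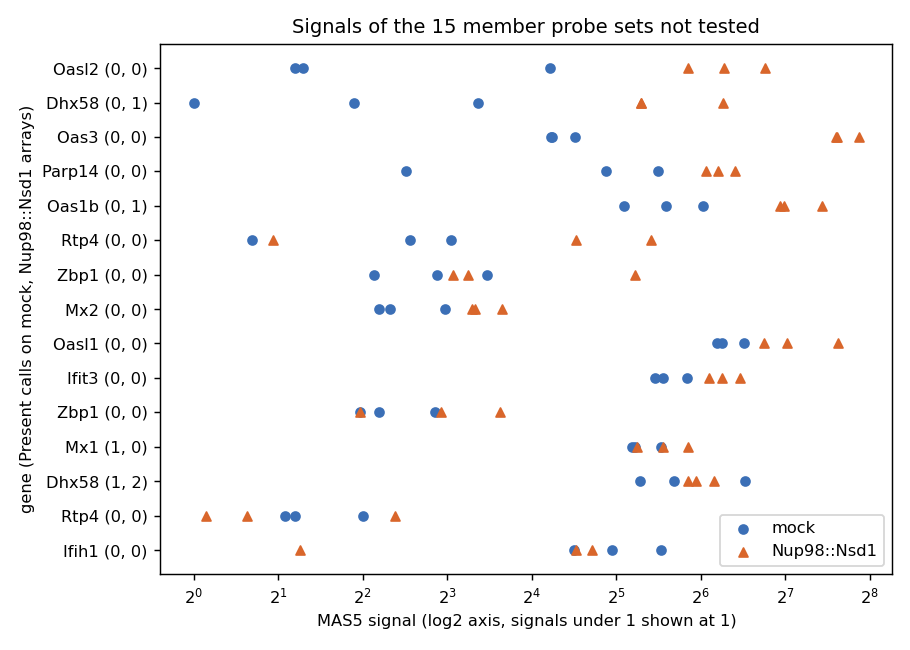
MAS5 signal (horizontal log2 axis, signals under 1 shown at 1) of the 15 member probe sets that were not tested, 1 row per probe set and 1 point per array, with mock arrays as blue circles and Nup98::Nsd1 arrays as orange triangles. Numbers in brackets are the arrays of each group with a Present call. In 8 rows, among them Oas3 at 18.8 to 22.9 against 193 to 235, the groups do not overlap. The share of all untested probe sets without overlap was not counted.

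The IFIT genes encode proteins that bind foreign RNA at its end and hinder its translation, and they lie side by side on chromosome 19. Of the 2 tested, Ifit1 rose and Ifit2 was not called. Ifit1 read 28.6, 32.9 and 13.0 on the mock arrays, all Absent, and 90.7, 101 and 98.4 on the Nup98::Nsd1 arrays, all Present. It was at least 4.19-fold higher (adjusted p = 0.000353).

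Ifit2 was Present on all 6 arrays, at 712, 651 and 624 in mock and 548, 562 and 646 in Nup98::Nsd1 cells. The groups overlapped, and the log2 fold change of -0.18 was not called (95% interval -0.371 to 0.00954, adjusted p = 0.0822). It was called lower without Nup98::Nsd1 replicate 3 (-0.25) and under each other scaling, from -0.34 with quantile normalization to -0.55 with hybridization control scaling. Ifit3 was not tested: it read 44.1, 57.2 and 47.0 on the mock arrays, all Absent, and 68.6, 88.4 and 75.9 on the Nup98::Nsd1 arrays, of which 1 was Marginal. Whether the changes of Ifit1 and Ifit2 differ from each other was not tested.

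Of the 4 member genes for interferon-induced GTPases, Gbp2 and Gbp3 rose, and Mx1 and Mx2 were not detected well enough to be tested. Gbp2 and Gbp3 act against intracellular pathogens. Gbp2 read 57.0, 55.9 and 53.1 in mock cells and 254, 306 and 264 in Nup98::Nsd1 cells, a 4.94-fold rise (adjusted p = 2.27e-07), and its dimmer probe set, of a type that may cross-hybridise, rose by 2.50 on the log2 scale. Gbp3 read 96.5, 74.2 and 83.2 against 474, 482 and 382, a 5.27-fold rise (adjusted p = 8.64e-08). In both genes the groups were far apart, although members of this family have similar sequences and their probes could share signal.

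Mx1, which restricts influenza virus and is defective in many laboratory strains, read 36.3, 37.4 and 46.4 on the mock arrays and 37.9, 57.8 and 46.8 on the Nup98::Nsd1 arrays, Present on 1 mock array. Mx2 was Absent on all arrays at 4.58 to 12.6. Rtp4, a chaperone induced by interferon, was Absent at both of its probe sets, with overlapping groups and 42.7 as the highest signal.

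All 6 genes that restrict viruses by other routes rose, by amounts from 1.39-fold to 6.34-fold. Samd9l read 472, 503 and 510.3 on the mock arrays and 3057, 3210 and 3146 on the Nup98::Nsd1 arrays. Present on all 6 arrays, it rose 6.34-fold (log2 fold change 2.66, SE 0.0553, adjusted p = 4.29e-11), the smallest p of the 23 members. Samd9l is known as a regulator of translation whose mutations occur in inherited bone marrow failure.

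Isg20, an exonuclease for RNA, read 422, 459 and 379 in mock and 1751, 1610 and 1767 in Nup98::Nsd1 cells, a 4.08-fold rise (adjusted p = 1.99e-09). Rsad2 encodes viperin, which makes a chain-terminating nucleotide. It read 75.01, 69.5 and 49.0 on the mock arrays, Present on 1, and 184, 157 and 168 on the Nup98::Nsd1 arrays, 2.67-fold higher (adjusted p = 9.18e-05). All 3 of its probe sets were called higher, the other 2, Absent on all mock arrays, by at least 2.28-fold and 1.94-fold.

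Bst2 encodes tetherin, which holds budding virus at the cell surface. It read 2182, 2113 and 2068 in mock and 4031, 3744 and 4170.3 in Nup98::Nsd1 cells, which is 1.88-fold higher (adjusted p = 2.69e-08). Adar, which converts adenosine to inosine in duplex RNA and so keeps self RNA from the sensors, rose 2.06-fold (632, 681 and 720.4 against 1448, 1347 and 1397, adjusted p = 7.81e-08). All 3 Adar probe sets rose, but by 0.42 to 1.58 on the log2 scale. Eif2ak2, the RNA-activated kinase PKR that halts translation, rose by 0.47 on the log2 scale (1002, 998 and 997 against 1375, 1476 and 1309, adjusted p = 2.25e-05). That was its brightest probe set: the 2 others stood at -0.06 and were not called, and with hybridization control scaling the first stood at 0.11 and was not called either.

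The 4 tested member genes of interferon signalling and its feedback each rose by less than 2-fold at their brightest probe set. Stat2, which acts together with Irf9, read 292, 279 and 284 in mock and 432, 406 and 452 in Nup98::Nsd1 cells, a 1.51-fold rise (log2 fold change 0.59, SE 0.0941, adjusted p = 0.00015). Its other probe set rose by 0.86, and with hybridization control scaling the first stood at 0.23 and was not called (adjusted p = 0.0818). Usp18, which removes the modifier Isg15 from proteins and dampens the type I receptor, read 172, 131 and 147 against 260, 294 and 239, a 1.77-fold rise (adjusted p = 0.000401).

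Trim25 and Ifi35 had probe sets called in opposite directions. Trim25 is a ubiquitin ligase that supports RNA sensing. Its brightest probe set read 2647, 2681 and 2743 in mock and 3283, 3354 and 3428 in Nup98::Nsd1 cells, 0.32 higher on the log2 scale (adjusted p = 3.49e-05), and another rose by 0.16. The dimmest fell from 283, 263 and 237 to 155, 152 and 206 (log2 fold change -0.62, adjusted p = 0.0032). Ifi35, a protein released as a danger signal, was 0.12 higher at its brightest probe set (4423, 4474 and 4397 against 4718, 4948 and 4790.1, adjusted p = 0.0169) and fell by 0.22 and 0.47 at the other 2. For neither gene does the array give a single direction, and under hybridization control scaling the brightest stood at -0.05 for Trim25 and -0.24 for Ifi35.

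Parp9 and Dtx3l, whose products form an ADP-ribosylating ubiquitin ligase, and Parp14, a larger relative of Parp9, each rose. Parp14 read 274, 261 and 296 in mock and 820.2, 851 and 881 in Nup98::Nsd1 cells, a 3.08-fold rise (log2 fold change 1.62, SE 0.0836, adjusted p = 1.56e-08), and its other probe set was not tested. Parp9 read 361, 364 and 396 against 749.8, 735 and 682, a 1.93-fold rise (adjusted p = 9.24e-07). Dtx3l read 694, 816 and 736 against 1095, 1024 and 1003, 1.39-fold higher (adjusted p = 0.00012). It rose by 0.91 on the log2 scale at its dimmer probe set. With hybridization control scaling the brighter Dtx3l probe set stood at 0.11 and was not called.

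Of the remaining members, Xaf1 and Ifi27 act in cell death. Xaf1, an antagonist of the inhibitor XIAP, read 72.2, 78.9 and 43.6 on the mock arrays, Present on 2, and 584, 548 and 599 on the Nup98::Nsd1 arrays, 9.18-fold higher (log2 fold change 3.20, SE 0.203, adjusted p = 8.07e-08). A dimmer Xaf1 probe set differed: it read 44.2, 61.2 and 68.0 against 84.5, 75.3 and 14.4, overlapped between the groups and was not called (log2 fold change -0.34, adjusted p = 0.614). Ifi27, a mitochondrial protein gene, read 1016, 889.8 and 977 in mock and 2428, 2363 and 2371 in Nup98::Nsd1 cells, a 2.49-fold rise (adjusted p = 5.24e-09), and rose by 1.57 on the log2 scale at its other probe set.

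Several tested probe sets were available for 11 members. In 7 all were called higher, in Trim25 and Ifi35 calls went both ways, and in Eif2ak2 and Xaf1 some were not called. The share of all genes with several tested probe sets whose calls agreed was not counted, so the 7 are no result about the members. The largest distance was 3.53 on the log2 scale, for Xaf1. With 3 arrays a group, an exact two-sided permutation test has 20 possible assignments and cannot go below p = 0.1, a value that 22 of the 23 tested genes reached and Ifit2 did not. How many of all tested genes reach it was not counted, so this count is no result about the members.

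**Figure D4:**
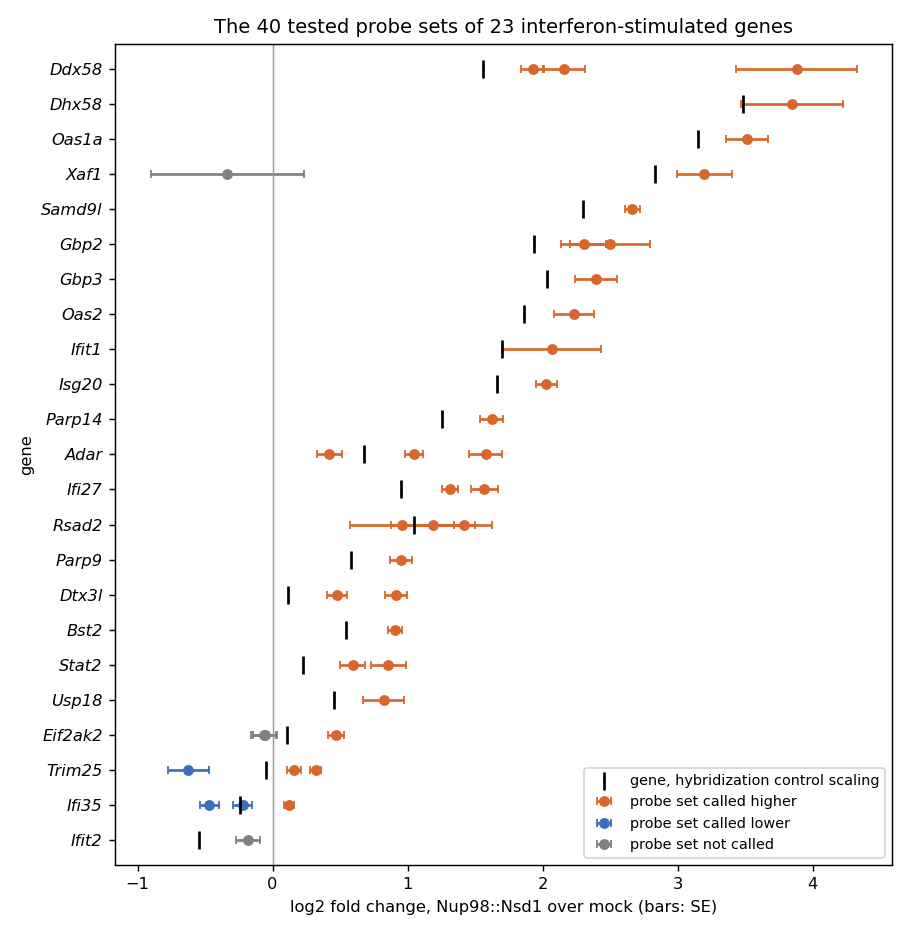
Log2 fold change, Nup98::Nsd1 over mock, of the 40 tested probe sets of the 23 tested members, 1 point per probe set with its SE as a bar, coloured by call; for the 6 probe sets Absent on all mock arrays the point is the fitted value. The black bar marks the gene's brightest probe set with hybridization control scaling; Trim25 and Ifi35 have probe sets on both sides of 0.

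Outside the members, the interferon pathway was described by 4 further lists. Of 10 interferon genes measured, Ifnz was the only one detected on all 6 arrays and tested. Ifnz encodes interferon zeta, or limitin, a type I interferon of the mouse. It read 169, 250.4 and 199.8 in mock and 771, 689 and 694 in Nup98::Nsd1 cells, a 3.52-fold rise (adjusted p = 2.76e-07), and 1.45 on the log2 scale with hybridization control scaling. Ifnz has closely related copies that its probes could also bind. Ifng and the 7 interferon alpha and related genes measured were Present on no array, with no signal above 68.1, and Ifnb1, the interferon beta gene, was Present on 1 array of each group at 33.8 to 70.5 over all arrays.

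Of 10 tested genes of interferon receptors and signalling, 5 rose and 1 fell, beside 42.9% and 29.5% of all tested genes. Scaled to the hybridization controls, 2 rose and 5 fell, beside 21.1% and 50.4%. Both shares of rises are near those of all genes. The receptor chain Ifnar2 rose 1.80-fold (1331, 1408 and 1574 against 2649.6, 2463 and 2641, adjusted p = 3.41e-07) and Irf9, the DNA-binding partner of Stat2, rose 2.36-fold (303, 288 and 265 against 635, 705 and 678, adjusted p = 2.43e-07). Both were also called higher with that scaling. The chain Ifnar1, the kinase Tyk2 and the interferon gamma receptor chain Ifngr2 rose 1.48-fold, 1.48-fold and 1.35-fold, and were not called with that scaling, at 0.20, 0.20 and 0.06 on the log2 scale. The feedback inhibitor Socs1 fell by 0.51 on the log2 scale (adjusted p = 0.0282), with overlapping groups at 215, 229 and 156 against 165, 124 and 129. Jak1, Jak2, Ifngr1 and the phosphatase Ptpn2 were not called as deposited at their brightest probe sets, at -0.08, 0.02, 0.05 and -0.0035. They were called lower with hybridization control scaling, at -0.45, -0.34, -0.32 and -0.37. Dimmer probe sets of Jak2 and Ptpn2 differed from the brightest as deposited. That of Jak2 read 1751, 1841 and 1731 in mock and 1405, 1278 and 1389 in Nup98::Nsd1 cells. Each dimmer Ptpn2 probe set was also lower without overlap, among them 1 at 248, 229 and 234 against 141, 122 and 105. The dimmer Jak1 probe sets overlapped between the groups.

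Of 11 tested genes of nucleic acid sensing, 7 rose and 2 fell, beside 42.9% and 29.5% of all tested genes. With hybridization control scaling 4 rose and 3 fell, beside 21.1% and 50.4%. Ikbke, the kinase IKK-epsilon that activates Irf3 and Irf7, rose 8.06-fold, from 304, 378 and 407 to 2934, 3058 and 2728 (adjusted p = 5.76e-10). Irf7, the factor that amplifies interferon production, rose 5.41-fold from 73.4, 80.7 and 81.8 to 438, 392 and 448 (adjusted p = 2.71e-08). Sting1, the adaptor of cytosolic DNA sensing, rose 2.38-fold (adjusted p = 5.74e-08) and Aim2, a DNA sensor of the inflammasome, 1.81-fold (adjusted p = 1.22e-06). The genes that fell, named after their values were seen, were the adaptor Myd88, by 0.21 on the log2 scale, and the DNA sensor Cgas, by 0.14. For Cgas that is the brightest probe set. Its dimmer one overlapped between the groups, at 1062, 972.1 and 1078 in mock and 790.9, 1071 and 953.1 in Nup98::Nsd1 cells.

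Of 41 tested genes in a list of other interferon-inducible genes, 29 rose, 5 fell and 7 were not called, beside 42.9% called higher and 29.5% lower among all tested genes. Scaled to the hybridization controls, 22 rose and 9 fell, beside 21.1% and 50.4%. The chemokine Ccl5, Absent on the mock arrays at 4.22, 14.96 and 56.5, was Present at 177, 226 and 194, at least 10.3-fold higher (adjusted p = 0.000534). Slfn5, of the Schlafen family, was at least 7.45-fold higher (adjusted p = 0.000599) and Slfn2 2.88-fold (adjusted p = 2.79e-09). Ccl5 and Slfn5 passed the detection filter only through the Nup98::Nsd1 arrays, so their rise is tied to the filter. The same holds for Trim34a and Slfn8 among the 29. Nlrc5, the activator of MHC class I genes, rose 5.06-fold (87.3, 91.8 and 122.5 against 475, 534 and 501, adjusted p = 7.97e-08). Ifi27l2a, a relative of Ifi27, rose 3.91-fold (adjusted p = 3.71e-08) and Shisa5 2.93-fold (adjusted p = 7.39e-10). The 5 that fell, named after their values were seen, were Ifi47, a GTPase that interferon gamma induces, at -1.32, Plac8 at -1.22, Apobec3, a restrictor of retroviruses, at -0.65, Lgals9 at -0.64 and Pml at -0.31 on the log2 scale. For Pml that is the brightest probe set. A dimmer one was higher without overlap, at 521, 544 and 523 in mock and 815, 923 and 569 in Nup98::Nsd1 cells. The array thus gives Pml no single direction.

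**Figure D5:**
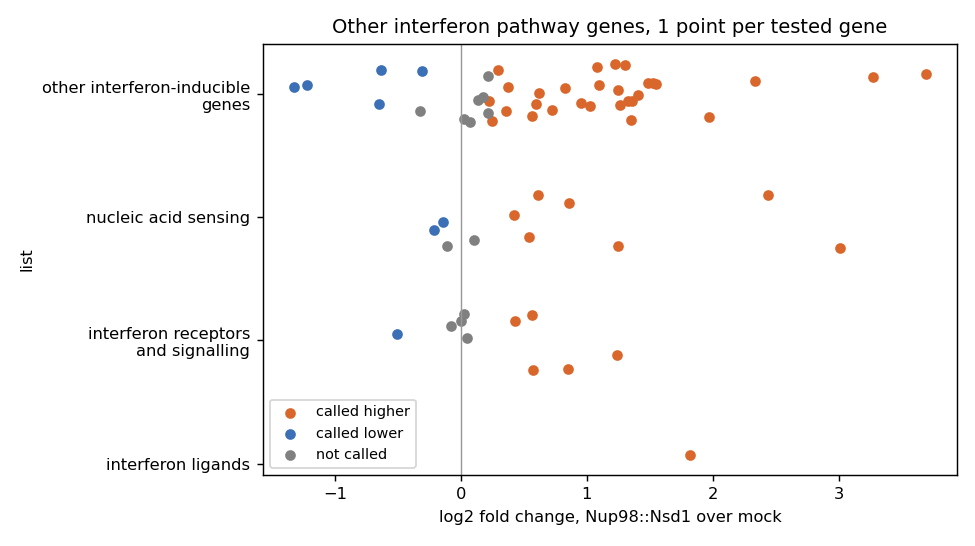
Log2 fold change, Nup98::Nsd1 over mock, of the tested genes of 4 interferon pathway lists outside the members, 1 point per gene, coloured by call; the vertical position within a list has no meaning. As deposited, calls higher and lower number 1 and 0, 5 and 1, 7 and 2, and 29 and 5 in the 4 lists; hybridization control scaling turns the order for receptors and signalling to 2 and 5.

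Markers were set beside these results, since interferon-stimulated genes differ in level between blood cell types and, in bulk RNA, fewer cells of a type and less RNA per cell cannot be told apart. Of 12 myeloid progenitor markers 9 were Present on all 6 arrays, among them Mpo, Prtn3, Ctsg and Ptprc, while Kit and Cd34, which mark early progenitors, were Present on none. Of the 10 that were tested 4 rose and 5 fell, beside 42.9% and 29.5% of all tested genes, and with hybridization control scaling 1 rose and 7 fell, beside 21.1% and 50.4%. On the log2 scale Ms4a3 stood at -2.36, Mpo at -1.88, Elane at -1.30, Prtn3 at -0.92, Myb at -0.16 and Ctsg, not called, at 0.05. Cebpa stood at 0.87, Ptprc at 0.39, Spi1 at 0.32 and Csf2rb at 0.17. With hybridization control scaling Ptprc and Spi1 stood at 0.027 and -0.048 and were not called. Csf2rb stood at -0.2 with that scaling and was called lower. All of these are values of the brightest probe sets. A dimmer Csf2rb probe set was lower without overlap as deposited, at 2166, 2112 and 1951 in mock and 1546, 1659 and 1626 in Nup98::Nsd1 cells. The array thus gives Csf2rb no single direction. A dimmer Myb probe set was also lower without overlap, at 8370, 8032 and 7803 against 4296, 4250 and 4650, and another Myb probe set overlapped between the groups. The summed signal of this list was 75130 to 81090 on mock and 51560 to 52060 on Nup98::Nsd1 arrays. Of 6 markers of plasmacytoid dendritic cells, the main producers of type I interferon, Siglech, Ccr9 and Ly6d were Present on no array, Tcf4 rose by 1.27 and Cox6a2 by 3.65 on the log2 scale, and Klk1 fell by 0.23. The brightest Cox6a2 probe set passed the detection filter only through the Nup98::Nsd1 arrays, so its rise is tied to the filter. The Klk1 value comes from a probe set of a type that may cross-hybridise, and the other Klk1 probe sets were Present on no array. The summed signal of these 6 markers was 1176 to 1229 on mock and 2633 to 2951 on Nup98::Nsd1 arrays.

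Of 10 macrophage and dendritic cell markers, 6 (C1qa, C1qb, C1qc, Itgax, Xcr1 and Flt3) were Present on no array, Csf1r rose by 1.21 and Adgre1 by 0.22, and Cd68 fell by 0.30 on the log2 scale. Adgre1 was not called with 75th percentile or median centring and was called lower with hybridization control scaling (-0.15, adjusted p = 0.0451 by limma). The list's summed signals were 3954 to 4184 on mock and 4387 to 4597 on Nup98::Nsd1 arrays. No B cell, T and NK cell or stromal marker was Present on all 6 arrays. The summed B cell signal was 312 to 362 on mock and 287 to 404 on Nup98::Nsd1 arrays, that of T and NK cells 242 to 254 and 167 to 228, that of stroma 86.1 to 153 and 128 to 184, and that of the 2 erythroid markers measured 472 to 534 and 368 to 395. The part of other cell types in the results was not tested.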

How the data were processed

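RNA of 3 mock and 3 Nup98::Nsd1 samples was hybridised to Affymetrix Mouse Genome 430 2.0 arrays, 1 per sample. The authors used MAS5, per the submitters' processing notes. The deposited signal is a MAS5 intensity on a linear scale, per the file headers. The authors deposited a detection p-value and a call (Present, Marginal or Absent) beside it. The MAS5 version, its scaling target and its call thresholds were not given in those sources.

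The 64 control probe sets were left out. Symbols came from the platform annotation of 2016, updated through Entrez identifiers. The deposited signals, with those under 1 raised to 1, were converted to log2 and not scaled again. Probe sets Present on each array of at least 1 group (20494, for 9641 genes) entered moderated tests of limma 3.58.1 under R 4.3.3 with an intensity trend, Benjamini-Hochberg adjustment over all 20494 and a threshold of 0.05, and the fit was tested on simulated data. Each gene was read from the brightest of its tested probe sets (mean log2 signal). All 35 members are named; of the other lists, every tested receptor and signalling gene, each detected ligand, the 4 called sensing genes with the smallest p and the 6 called inducible genes with the largest change, beside exceptions stated. The members and lists were chosen with earlier results of these data known, so a list's count is no independent support. Promoter windows came from RefSeq (GRCm38.p6), and their strand was checked on 1838 overlapping windows, all of which matched. The number of arrays limits the precision. The alternatives were other offsets, detection filters, normalizations, variance models, the series' matrix, a block on replicate number, averaging over each gene's probe sets, and leaving out each array.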

Additional observations from a re-analysis of the deposited data

How the results depend on the processing

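The count of member genes called higher, 22, stayed within 1.5 times under all 20 alternatives, and 15 of the 23 tested genes kept direction and call under each alternative that tested them. The count called lower, 0 as deposited, was 1 with quantile normalization, 75th percentile centring, median centring or averaging over each gene's probe sets, 2 with hybridization control scaling, and 0 to 1 when single arrays were left out (1 without Nup98::Nsd1 replicate 3). Probe sets called lower, 3 as deposited, numbered 6 with 75th percentile or median centring and 8 with hybridization control scaling. Genes higher by at least 2-fold, 14 as deposited, numbered 8 among genes Present on all 6 arrays or on all 3 mock arrays, since fewer genes are then tested. The median log2 fold change of the members, 1.42, was 1.3 with a pseudocount of 16 and 0.98 with 64, 1.05 without a detection filter, 0.95 and 0.93 with the filters on all 6 and on the mock arrays, 1.3, 1.22, 1.25 and 1.05 with quantile, 75th percentile, median and hybridization control scaling, and 1.32 to 1.54 without single arrays. Trim25 turned to -0.047 with hybridization control scaling and to -0.049 as the mean of its probe sets. Ifi35 turned to -0.075, -0.049 and -0.24 with 75th percentile, median and hybridization control scaling and to -0.19 with the mean of its probe sets, and was not called without Nup98::Nsd1 replicate 2 (0.10). Xaf1 turned to -0.34 with the filter on the mock arrays, which leaves its other probe set. With the replicate block, 22 members were called higher and the block changed no call of a member. Same-numbered arrays correlated at -0.017, -0.011 and 0.021 in their deviations from the group means, and the other pairs at -0.0327 to 0.0452. These values show no pairing by number in the signals. They cannot tell whether same-numbered samples were handled together. The causes of the other changes were not tested. The lowest Present signal was 8.06 to 15.4 over the arrays, and genes near it are limited by background.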
